A study of Mus musculus with 9 samples.

Results

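Transcripts of 9 dopamine and adrenergic receptor genes were followed in RNA from hippocampal synaptoneurosomes, which are resealed nerve endings and attached dendritic pieces enriched from tissue homogenate. The genes are Drd1, Drd2, Drd5, Adra1a, Adra1b, Adra1d, Adra2a, Adra2c and Adrb1. They were chosen by symbol, and all 9 were found among the 22255 genes of the count table through their Ensembl identifiers without the version number. All animals were Fmr1 KO mice of the C57Bl/6J strain, a model of fragile X syndrome that lacks the RNA-binding protein FMRP. AM6545 was given sub-chronically to 4 of the samples (lettered A, B, C and E), and vehicle to the other 5 (A to E). AM6545 is an antagonist of the cannabinoid receptor CB1 that enters the brain poorly. Both groups carry the Fmr1 deletion, and wild-type tissue is not analysed here. Fmr1 itself had 199 to 310 counts per sample, and since gene counts do not show which part of the gene the reads cover, they do not check the deletion. Dose, age and sex are not given in the sources used here. Nothing in the labels says whether samples came from separate animals, so p-values measure only the spread between these samples. The comparison asks which receptor transcripts of the synaptic fraction differ after treatment.

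Dopamine and noradrenaline act on G protein-coupled receptors that fall into classes by the G protein they use. The D1-class receptors Drd1 and Drd5 and the beta-adrenergic receptor Adrb1 raise cyclic AMP, while Drd2 and the alpha-2 receptors Adra2a and Adra2c lower it, and the alpha-1 receptors activate phospholipase C. In the hippocampus these receptors modulate synaptic plasticity and memory, and their ligands arrive in axons of neurons whose cell bodies lie outside it, chiefly in the locus coeruleus and the ventral tegmental area.

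Upstream sequences are shown for 3 genes: the alpha-2 pair Adra2c and Adra2a, of which Adra2c had the smallest p of the 9 genes, and Drd5, the second most abundant per length. Each runs 5′ to 3′ over the 250 bases before the transcription start, from RefSeq (build GRCm38.p6), with motif matches in capitals. Adra2c is on chromosome 5 (chr5:35278316-35278565, plus strand), Adra2a on chromosome 19 (chr19:54045009-54045258, plus strand) and Drd5 on chromosome 5 (chr5:38319259-38319508, plus strand).
Adra2c: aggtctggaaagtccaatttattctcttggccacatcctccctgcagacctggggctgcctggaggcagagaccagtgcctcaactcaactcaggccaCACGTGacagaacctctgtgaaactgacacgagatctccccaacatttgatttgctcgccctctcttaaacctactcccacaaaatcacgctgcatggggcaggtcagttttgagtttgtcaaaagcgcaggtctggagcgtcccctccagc
Adra2a: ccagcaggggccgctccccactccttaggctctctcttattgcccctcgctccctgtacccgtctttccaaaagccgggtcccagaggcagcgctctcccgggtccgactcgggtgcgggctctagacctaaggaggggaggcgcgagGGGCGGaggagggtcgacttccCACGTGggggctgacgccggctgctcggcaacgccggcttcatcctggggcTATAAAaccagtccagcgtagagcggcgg
Drd5: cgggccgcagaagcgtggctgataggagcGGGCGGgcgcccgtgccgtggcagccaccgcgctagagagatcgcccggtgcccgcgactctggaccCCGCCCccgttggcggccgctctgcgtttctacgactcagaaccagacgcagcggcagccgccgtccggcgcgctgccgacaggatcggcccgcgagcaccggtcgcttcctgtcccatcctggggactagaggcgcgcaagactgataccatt
Matches were sought on both strands for the GC box GGGCGG, the E-box CACGTG, the TATA box TATAAA and the cyclic AMP response element TGACGTCA. None of these matches overlapped another in the 3 windows shown. The Adra2c window held 1 E-box, which begins 152 bases before the start. The Adra2a window held 1 E-box, 80 bases before the start, with 1 GC box and 1 TATA box. Over 32851 windows of the same length, 6.02% held the E-box, 32.7% the GC box, 12.4% the TATA box and 1.55% the cyclic AMP response element.

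RefSeq windows were found for 7 of the 9 genes, 9 windows in all. Adra1a and Adra1d were not matched. A GC box was present in a window of 6 of the 7 genes, the exception being Adra2c. Drd1 and Adra1b had 2 windows each, of which the first held no GC box. The 32.7% above is a share of windows, so it is not on the same basis as this count of genes. The Drd5 window had 71.2% G or C and 35 CpG dinucleotides, and that of Adra2c 53.6% and 6, against medians of 52.4% and 6 over all windows. The E-box was present in 2 genes, the TATA box in 1 and the cyclic AMP response element in 0. These counts are also of genes, while the shares above are of windows. These matches are descriptions of sequence, and no binding was measured.

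Levels were compared between genes per kilobase of coding transcript (CPM per kb), where CPM is the count scaled by library size and a TMM factor, which is the edgeR correction for library composition. Adra2c stood first in the order, at 8.47 ± 1.14 CPM per kb (SD, n = 9), followed by Drd5 at 5.005 ± 0.969 (SD, n = 9). Drd1 and Adra2a came next, at 2.31 ± 0.450 and 2.17 ± 0.462 CPM per kb (SD, n = 9 each). The remaining order was Adra1d at 1.41 ± 0.317, Adrb1 at 1.18 ± 0.172, Adra1b at 0.886 ± 0.141, Adra1a at 0.810 ± 0.102 and Drd2 at 0.388 ± 0.170 CPM per kb (SD, n = 9 each). The most abundant receptors were thus 1 from each of the alpha-2 and D1 classes, and Drd2 was the least abundant.

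Neighbours in that order were compared within samples by a two-sided exact sign-flip permutation test on log2(CPM per kb + 0.1), adjusted over the 8 pairs. Of these, 6 differed beyond their spread. Adra2c exceeded Drd5 in 9 of 9 samples by 0.76 ± 0.21 log2 units (SD, n = 9; exact permutation adjusted p = 0.00625), and Drd5 exceeded Drd1 in 9 of 9 by 1.08 ± 0.27 (SD, n = 9; exact permutation adjusted p = 0.00625). For the other pairs no difference beyond the spread was found. Drd1 was above Adra2a in 5 of 9 samples (exact permutation adjusted p = 0.309), and Adra1b was above Adra1a in 6 of 9 (exact permutation adjusted p = 0.308). The order was the same with the longest coding transcript of each gene and in the vehicle samples alone. With the longest coding transcript 7 of 8 neighbours differed, since Drd1 then exceeded Adra2a beyond the spread (exact permutation adjusted p = 0.00625), so the place of that pair depends on the transcript length used.

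**Figure D1:**
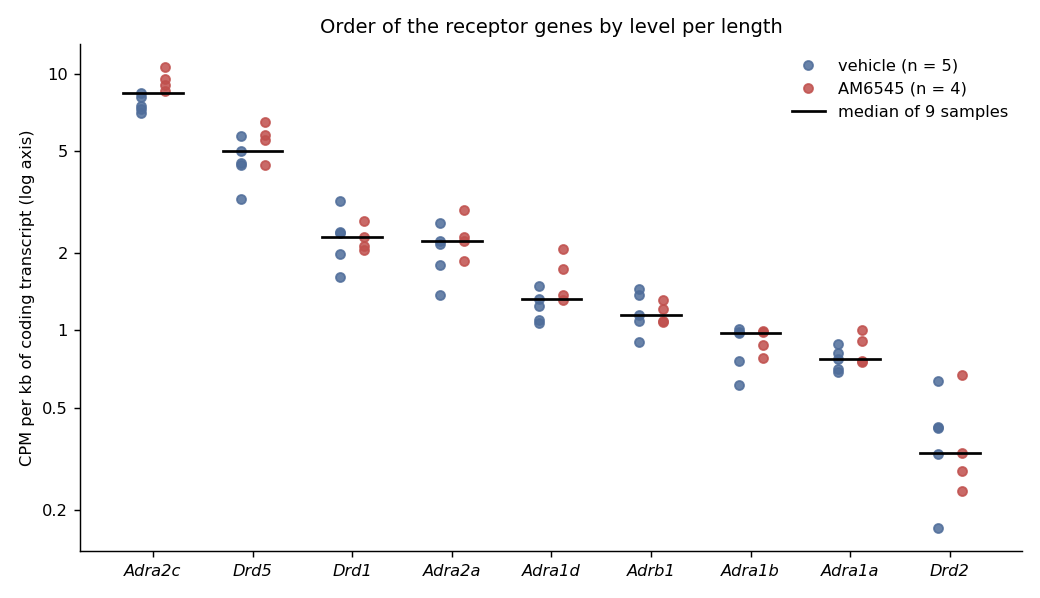
CPM per kb of coding transcript (log axis) for each receptor gene, with 1 point per sample (vehicle n = 5, AM6545 n = 4) and a line at the median of the 9 samples. Adra2c lies between 7.06 and 10.6 CPM per kb and Drd2 between 0.170 and 0.671.

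The counts behind these levels differed widely between genes. Totals ran from 17628922 to 27263393 counts per sample. Adra2c rested on 421 to 921 counts per sample and Drd5 on 177 to 491, while Drd2 rested on 11 to 43. For Drd2 the counting error alone gives a coefficient of variation of 21.3%, against 43.7% measured over the 9 samples. For Adra2c the counting error gives 3.87%, against 13.5% measured. In M21, the GENCODE mouse annotation used here, an antisense gene overlaps Drd5 (Gm26560) and another overlaps Adra1d (Gm14285). The strand setting of the counting is not given in the sources used here, so part of the reads of Drd5 and Adra1d could come from the other strand.

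In the comparison of AM6545 with vehicle, Adra2c was the receptor gene whose groups did not overlap, and 0 of the 9 genes passed the threshold. All 9 passed edgeR's filter on low counts and were tested with 14512 genes. By edgeR's quasi-likelihood test, 0 had an adjusted p under 0.05, where 0% of all genes tested did. At an unadjusted p under 0.05 there was 1 of 9, Adra2c, against 7.21% of all genes (3.03% higher and 4.18% lower). By DESeq2 and by limma-voom 0 of the 9 passed the adjusted threshold. The log2 fold change was above 0 for 6 of the 9, against 48.2% of all genes, and below 0 for 3. It was at least 0.25 for 3, Adra2c, Adra1d and Drd5, against 7.64% of all genes. The median log2 fold change was 0.15 over the 9 genes and -0.01 over all genes tested. The median is the value of Adra1a, whose interval includes 0. Without AM6545 E it was 0.06, and with each sample's transcript length trend removed it was 0.09.

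Adra2c encodes the alpha-2C adrenergic receptor, which couples to inhibitory G proteins and acts both on noradrenergic terminals and on their target neurons. Its level was 32.8, 29.6, 31.2 and 36.6 CPM in AM6545 A, B, C and E. In vehicle A to E it was 24.3, 28.9, 25.1, 25.9 and 28.1 CPM. Every AM6545 sample lay above every vehicle sample, although AM6545 B and vehicle B differed little. Ranges that do not overlap occurred for 1 of the 9 genes, against 1.45% of all genes tested, and 0.579% with AM6545 higher. Its mean was 32.5 ± 2.99 CPM with AM6545 (SD, n = 4) and 26.5 ± 1.95 CPM with vehicle (SD, n = 5). Adra2c had a log2 fold change of 0.30 (SE 0.10), a 1.23-fold higher level with a 95% interval of 1.06 to 1.42, an unadjusted p of 0.00857 and an edgeR adjusted p of 0.653. The two-sided exact permutation test of mean CPM gave p = 0.0159, the smallest that 4 against 5 samples allow. Ranges that do not overlap always give this p, so it adds nothing to that separation. It was not adjusted over the 9 receptors, and the others had p from 0.0952 (Adra1d) to 0.937 (Drd1) by the same test. Over 19 alternatives its log2 fold change ran from 0.24 to 0.34, its unadjusted p from 0.00407 to 0.0448 and its adjusted p from 0.320 to 0.920.

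**Figure D2:**
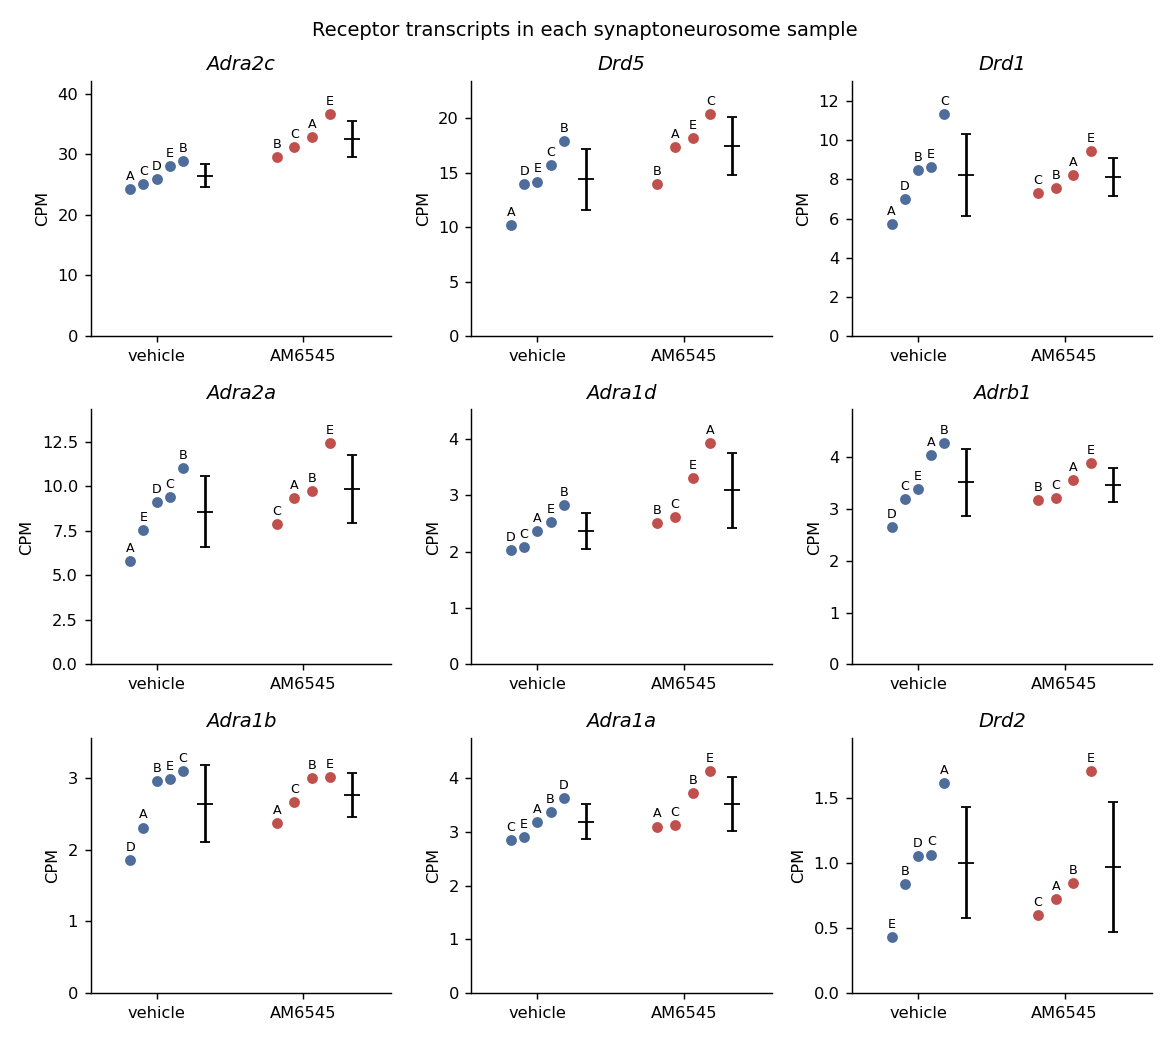
CPM of each receptor gene (vertical axes from 0) in each sample, with letters naming the replicates and black bars giving the mean ± SD of each group (vehicle n = 5, AM6545 n = 4). Adra2c is at 29.6 to 36.6 CPM in AM6545 samples and 24.3 to 28.9 in vehicle samples, while the groups overlap for the 8 other genes.

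Marker levels were read beside Adra2c from lists of cell type and region genes. The CA1 pyramidal cell list (Wfs1, Fibcd1, Pou3f1, Mpped1 and Spink8) had 4 of 5 genes higher, and its summed level was 532 to 574 CPM in AM6545 samples and 461 to 564 in vehicle samples, with none of its genes at 0. It was lowest in vehicle A, at 461 CPM, where Adra2c was also lowest, and highest in AM6545 E, at 574 CPM, where Adra2c was highest. In vehicle B the CA1 sum, 564 CPM, was above those of AM6545 A and C, 558 and 532 CPM, while Adra2c was lower in vehicle B than in either. The choroid plexus list, led by Ttr, had 7 of 7 genes lower, with sums of 62.4 to 970 CPM in AM6545 samples and 49.2 to 4458 in vehicle samples, and Aqp1 at 0 in at least 1 sample. Its lowest sum was in vehicle C, where Adra2c was low as well, at 25.1 CPM. The ependymal list had 5 of 5 lower, at 9.91 to 11.2 against 10.7 to 23.2 CPM. The microglia list had 5 of 6 genes higher, with sums of 750.1 to 1001 CPM in AM6545 samples and 564 to 883 in vehicle samples, and its highest sum was also in AM6545 E. In vehicle A, where Adra2c was lowest, the microglia sum was 879 CPM. In the CA3 pyramidal cell list 4 of 5 genes were higher, at 375 to 585 against 374 to 445 CPM, and in the dentate granule cell list 5 of 7, at 632 to 686 against 559 to 683 CPM. The CA3 sum was alike in AM6545 E and vehicle A, at 375 and 374 CPM, where Adra2c was highest and lowest. Over all 17 lists 9 of 105 tested genes (8.57%) had an unadjusted p under 0.05 by edgeR, against 7.21% of all genes, and 0 an adjusted one. The 9 were Fibcd1 (CA1), Grik4 (CA3), Dsp (dentate granule cells) and Tmem119 (microglia), all higher, and Pcp4 (CA2), Folr1 (choroid plexus) and Tmem212, Dynlrb2 and Rarres2 (ependymal cells), all lower. The part of these differences in the Adra2c result was not tested. With vehicle A and vehicle D left out together, which was tried once the data had been seen, Adra2c had a log2 fold change of 0.24 (unadjusted p = 0.0448, edgeR adjusted p = 0.882). In bulk RNA, fewer cells of a type and less RNA per cell cannot be told apart.

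**Figure D3:**
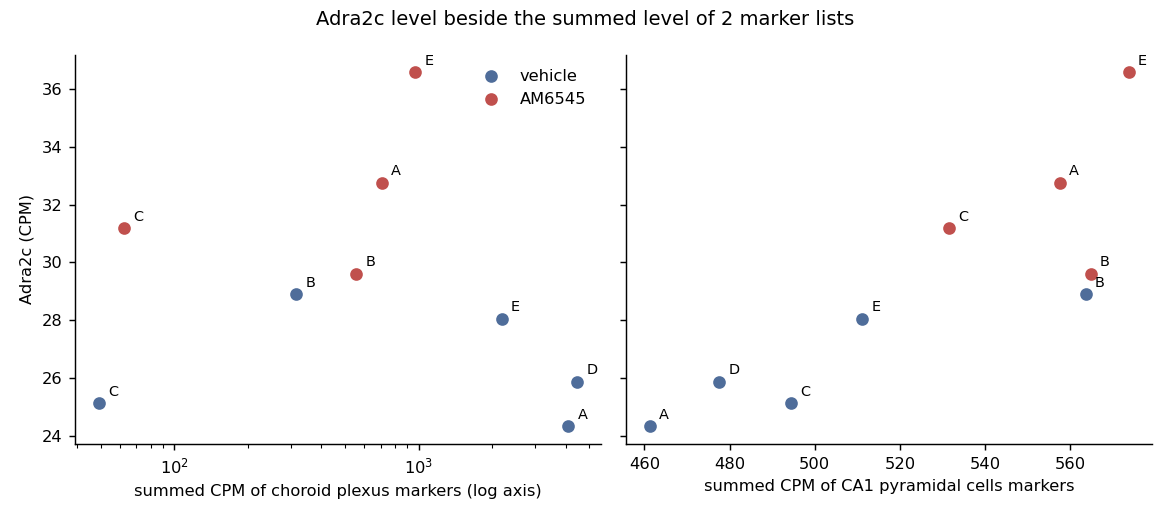
Adra2c level (CPM, axis not from 0) against the summed CPM of the choroid plexus markers (left, log axis) and of the CA1 pyramidal cell markers (right), 1 lettered point per sample. Vehicle A and D hold the highest choroid plexus sums, 4102 and 4458 CPM, and vehicle A, D, C and E the lowest CA1 sums, from 461 to 511 CPM.

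Adra2a encodes the alpha-2A receptor, the main inhibitory autoreceptor of noradrenergic terminals, which is also found on target neurons. Its level was 9.36, 9.70, 7.85 and 12.4 CPM in AM6545 A, B, C and E, and 5.78, 11.02, 9.39, 9.13 and 7.56 CPM in vehicle A to E. The groups overlapped, with the lowest value in vehicle A and the highest in AM6545 E. Mean Adra2a was 9.84 ± 1.91 CPM with AM6545 (SD, n = 4) and 8.57 ± 1.99 with vehicle (SD, n = 5), which gives a log2 fold change of 0.19 (SE 0.18, edgeR adjusted p = 0.757). The 95% interval, 0.877-fold to 1.49-fold, contains the fold seen for Adra2c. It was 0.06 on the log2 scale without AM6545 E and 0.09 without vehicle A.

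Of the D1 class, Drd5 encodes the D5 receptor, which stimulates adenylyl cyclase and is found on hippocampal pyramidal neurons. Its level was 17.4, 13.9, 20.4 and 18.2 CPM in AM6545 A, B, C and E, and 10.2, 17.97, 15.7, 13.95 and 14.2 CPM in vehicle A to E. AM6545 C and E lay above all 5 vehicle samples and AM6545 A above 4, but AM6545 B lay below 4 of them, so the groups overlapped. Drd5 had a log2 fold change of 0.28 (SE 0.15, edgeR unadjusted p = 0.0923, adjusted p = 0.653), with a 95% interval of 0.965-fold to 1.52-fold. Its unadjusted p was 0.0328 without AM6545 B and also 0.0328 without vehicle B, and the log2 fold change was 0.18 without vehicle A and 0.13 without vehicle A and D together.

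Drd1 encodes the D1 receptor, which is abundant in striatal neurons and sparser in hippocampus. Its level was 8.22, 7.54, 7.30 and 9.45 CPM in AM6545 A, B, C and E, and 5.72, 8.49, 11.3, 7.02 and 8.62 CPM in vehicle A to E. The vehicle samples held both the lowest and the highest value, in vehicle A and vehicle C, and the AM6545 samples lay between them. Drd1 had a log2 fold change of -0.02 (SE 0.17, edgeR adjusted p = 0.979), with a 95% interval of 0.762-fold to 1.28-fold. Striatal markers other than the receptors, 11 genes led by Ppp1r1b, summed to 223 to 258 CPM in AM6545 samples and 226 to 294 in vehicle samples, with none at 0. Vehicle C, with the highest Drd1, had a striatal sum of 226 CPM. Vehicle D, with the highest striatal sum of 294 CPM, had Drd1 at 7.02 CPM. Ppp1r1b alone was at 71.0 CPM in vehicle C and 138 CPM in vehicle D, so the gap between these sums lay mostly in that gene. It was also high in vehicle A and E, at 136 and 118 CPM, against 71.0 to 96.1 CPM in the remaining samples. Vehicle A, D and E also had the highest choroid plexus sums, at 4102, 4458 and 2190 CPM. Whether striatal tissue contributed to Drd1 was not tested.

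Drd2 encodes the D2 receptor, which inhibits adenylyl cyclase and in hippocampus is known from mossy cells of the dentate hilus. Its level was 0.724, 0.847, 0.601 and 1.71 CPM in AM6545 A, B, C and E, and 1.62, 0.842, 1.07, 1.06 and 0.433 CPM in vehicle A to E. AM6545 E and vehicle A stood high and vehicle E low, with a 3.95-fold range over the 9 samples. Drd2 had a log2 fold change of -0.01 (SE 0.39, edgeR adjusted p = 0.997). Its 95% interval, 0.554-fold to 1.79-fold, was the widest of the 9 genes, so a rise or a fall within those bounds was not detectable with these samples. With AM6545 E left out the log2 fold change of Drd2 was -0.44, and with vehicle A left out it was 0.22. The mossy cell markers, 6 genes led by Ociad2, summed to 288 to 341 CPM in AM6545 samples and 292 to 380 CPM in vehicle samples.

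The alpha-1 receptors couple to phospholipase C. Adra1d, the alpha-1D receptor, had the largest log2 fold change of the 9 genes, 0.38 (SE 0.20, edgeR unadjusted p = 0.0765, adjusted p = 0.653). It was at 3.93, 2.50, 2.62 and 3.30 CPM in AM6545 A, B, C and E, and 2.37, 2.82, 2.08, 2.03 and 2.52 CPM in vehicle A to E. AM6545 A and E lay above all vehicle samples, while AM6545 B and C lay within the vehicle range, and the 95% interval of the fold was 0.969 to 1.74. Leaving out AM6545 A gave 0.24 on the log2 scale, and its unadjusted p was 0.0451 without AM6545 B and 0.0483 without vehicle B. Adra1a, the alpha-1A receptor, ran from 3.10 to 4.13 CPM in AM6545 samples and from 2.84 to 3.64 CPM in vehicle samples, a log2 fold change of 0.15 (SE 0.17, edgeR adjusted p = 0.808), or 0.06 without AM6545 E. Adra1b, the alpha-1B receptor, ran from 2.38 to 3.02 CPM and from 1.86 to 3.10 CPM, a log2 fold change of 0.07 (SE 0.20, edgeR adjusted p = 0.939). Its AM6545 range lay inside the vehicle range. The direction of Adra1b turned to -0.04 without vehicle D and to -0.13 without vehicle A and D together.

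Adrb1, the beta-1 adrenergic receptor, was at 3.57, 3.18, 3.22 and 3.89 CPM in AM6545 A, B, C and E, and at 4.04, 4.28, 3.20, 2.66 and 3.38 CPM in vehicle A to E. The AM6545 values lay inside the vehicle range. Adrb1 had a log2 fold change of -0.02 (SE 0.18, edgeR adjusted p = 0.979), with a 95% interval of 0.757-fold to 1.28-fold, and it changed sign under 4 alternatives, the largest being 0.07 without vehicle B.

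**Figure D4:**
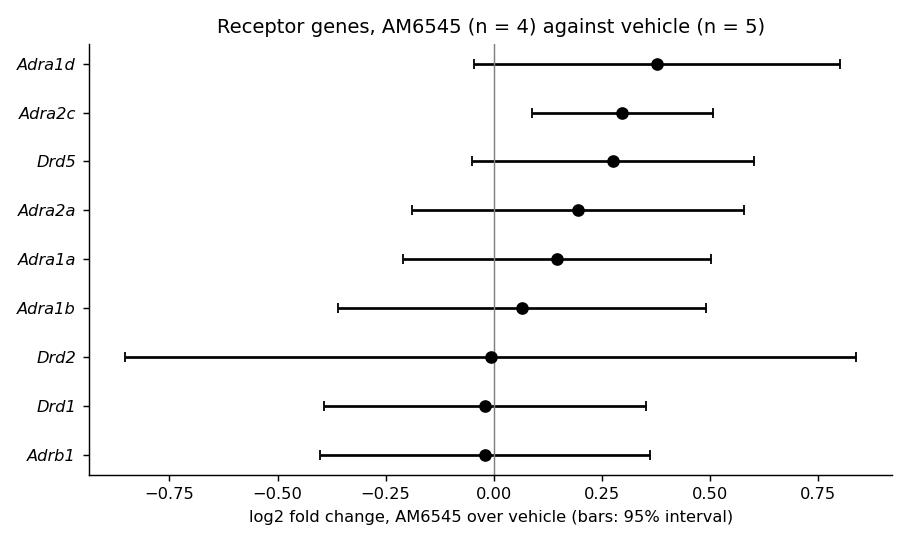
Log2 fold change of AM6545 over vehicle for each receptor gene (points) with its 95% interval (bars), from edgeR on 4 and 5 samples. The interval of Adra2c, 0.09 to 0.51, excludes 0 before adjustment over genes, and those of the 8 others include it.

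The samples at the ends of these ranges recurred. Vehicle A was lowest for 4 of the 9 genes, Drd1, Drd5, Adra2a and Adra2c, which are the 4 most abundant per kb. AM6545 E was highest for 4, Drd2, Adra1a, Adra2a and Adra2c, and vehicle D lowest for 3. Vehicle A had the lowest total, 17628922 counts, and the highest share of mitochondrially encoded transcripts, 7.90%. The other samples had 4.06% to 6.73%, and the 6.73% was in AM6545 E, which was highest for 4 genes. The part of total and mitochondrial share in the results was not tested. Without vehicle A the number of receptor genes at an unadjusted p under 0.05 by edgeR stayed at 1, Adra2c, whose log2 fold change was then 0.27. It was 3 without AM6545 B and 3 without vehicle B, when Adra1d and Drd5 joined Adra2c. The share of all genes at such a p was 3.43% without vehicle A, 4.38% without AM6545 B and 12.5% without vehicle B.

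Spread between samples was set against genes of like level (mean CPM within 1.25-fold). The edgeR biological coefficient of variation was 0.353 for Drd2, against a median of 0.262 over 525 such genes, and 0.190 for Adra2a, against 0.153 over 1152. Adra2c, at 0.111, and Adra1a, at 0.161, were steadier than their like-level medians of 0.126 and 0.198. So were Adra1b (0.190 against 0.210), Adra1d (0.191 against 0.210) and Adrb1 (0.175 against 0.195). Drd1 (0.183 against 0.156) and Drd5 (0.164 against 0.136) were above theirs. Drd2, Adra2a and Drd5 varied most on the log2 CPM scale (SD of 0.58, 0.32 and 0.30). The genes whose log2 CPM followed each most closely over the 9 samples were read as a description. For Drd5 they were Slitrk5 (Pearson r = 0.93, Spearman rho = 0.98), Pcdhb12 (0.93 and 0.97) and Kcns2 (0.92 and 0.90), among 11035 genes searched. For Adra2a they were Kcnj9 (0.91 and 0.88), Cntn4 (0.90 and 0.93) and Cds1 (0.90 and 0.90), and for Drd2 Ptprt (0.91 and 0.87), 2610507B11Rik (0.91 and 0.77) and Unc5d (0.89 and 0.85). The genes nearest to Drd5 and Adra2a all had their lowest level in vehicle A, as those receptors did. Their selection over the same 9 samples makes this likely, so it is not a separate observation. Without the 2 samples farthest from the receptor's median, Pearson r ran from 0.78 to 0.91 over the 9 pairs. These pairs were picked for a high r in the same samples, so this range cannot test the likeness.

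The other genes of catecholamine signalling were read from 5 lists by role, 73 genes in all, of which 67 were tested. By edgeR's quasi-likelihood test 0 passed an adjusted p of 0.05 and 2 had an unadjusted p under 0.05, 1 higher and 1 lower. These 2 are set against the same 7.21% of all genes.

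Of 4 other receptor genes of both families, 1 was tested. Adrb3, the beta-3 receptor, averaged 0.911 ± 0.338 CPM with AM6545 (SD, n = 4) and 0.812 ± 0.2997 with vehicle (SD, n = 5). Its log2 fold change was 0.15 (SE 0.34, edgeR adjusted p = 0.913). Drd3 had at most 2 counts in a sample, Drd4 between 4 and 9, and Adra2b at most 7, so these receptors were barely or not detectable at this depth.

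Of 12 genes for the synthesis, transport and breakdown of catecholamines, 9 were tested, 4 higher and 5 lower, with 0 at an unadjusted p under 0.05 by edgeR. Th, the rate-limiting enzyme of synthesis, had 16 to 37 counts per sample, and Slc6a2, the noradrenaline transporter, had at most 1. Slc18a2, the vesicular monoamine transporter, averaged 8.15 ± 2.23 CPM with AM6545 (SD, n = 4) and 7.004 ± 0.297 with vehicle (SD, n = 5). Its log2 fold change was 0.22 (SE 0.17, edgeR adjusted p = 0.717). Maob, which breaks down amines, averaged 61.6 ± 3.78 CPM with AM6545 (SD, n = 4) and 64.4 ± 11.9 with vehicle (SD, n = 5). Its log2 fold change was -0.07 (SE 0.13, edgeR adjusted p = 0.896).

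Of 22 genes for the G proteins, adenylyl cyclases and phospholipases that these receptors use, 14 were higher and 8 lower, with a median log2 fold change of 0.09. Adcy3, an adenylyl cyclase, was at 50.2, 47.1, 55.1 and 58.6 CPM in AM6545 A, B, C and E, and at 32.2, 52.6, 41.4, 42.8 and 37.7 CPM in vehicle A to E. The groups overlapped through vehicle B. Its log2 fold change was 0.35 (SE 0.13, edgeR unadjusted p = 0.0152, adjusted p = 0.653).

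Among 20 genes for receptor kinases, arrestins and RGS proteins, which end or dampen receptor signals, 10 were higher and 10 lower, with a median log2 fold change of 0.00. Rgs2, which speeds the shut-off of G proteins of the phospholipase C pathway, was at 52.7, 50.9, 53.1 and 47.4 CPM in AM6545 A, B, C and E, and at 65.9, 53.3, 78.6, 59.4 and 62.7 CPM in vehicle A to E. Every AM6545 sample lay below every vehicle sample, by a narrow margin at vehicle B. Ranges that do not overlap occurred for 1.45% of all genes tested. They also occurred, with AM6545 higher, for the G protein gene Gna11 (166.4 to 180.2 against 153.1 to 164.8 CPM). The same held for Prkcb of the effector list (813 to 900 against 612 to 788 CPM). Rgs2, Gna11 and Prkcb were the only such genes among the 67 tested in the pathway lists. Of all genes tested, 0.579% had such ranges with AM6545 higher. The log2 fold change of Rgs2 was -0.33 (SE 0.11, edgeR unadjusted p = 0.0101, adjusted p = 0.653).

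Of 15 genes for protein kinase A and further effectors, 9 were higher and 6 lower, with a median log2 fold change of 0.04 and 0 at an unadjusted p under 0.05 by edgeR. Prkcb, a protein kinase C isoform, averaged 852 ± 36.5 CPM with AM6545 (SD, n = 4) and 730.5 ± 71.5 with vehicle (SD, n = 5). Its log2 fold change was 0.22 (SE 0.11, edgeR adjusted p = 0.653). Ppp1r1b, which encodes the protein phosphatase inhibitor DARPP-32 and also leads the striatal list, averaged 87.5 ± 10.3 CPM with AM6545 (SD, n = 4) and 107.6 ± 32.8 with vehicle (SD, n = 5). Its log2 fold change was -0.30 (SE 0.19, edgeR adjusted p = 0.675).

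**Figure D5:**
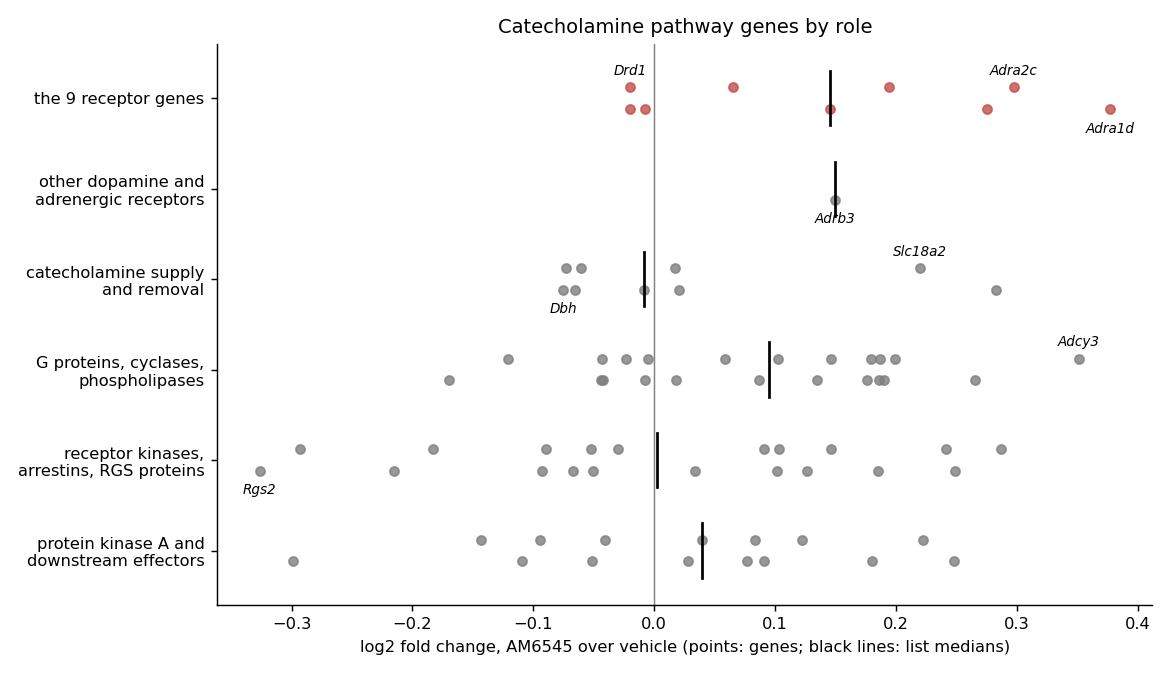
Log2 fold change of AM6545 over vehicle for each tested gene (points) of the 9 receptors (red) and of 5 catecholamine pathway lists (grey), with a black line at each median. The medians lie between -0.01 and 0.15, and single genes between -0.33 and 0.38. The list of other receptors holds 1 tested gene, Adrb3.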

How the data were processed

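RNA of hippocampal synaptoneurosomes was sequenced from low-input libraries in 9 samples. The deposited values are estimated counts per gene, 1 column per sample and not scaled. The submitters' processing notes name Salmon 1.3, DESeq2 1.30 and the builds GRCm39 and mm10, with no role given. The strand setting and the way shared reads were divided are not given in the sources used here. Of the 81 receptor values, 70 were whole within 0.01. Symbols were found for 22155 of 22255 identifiers. Identifiers were matched to symbols without their version numbers, which differ from those of M21. M21 served for transcript lengths (medians over coding transcripts) and overlaps.

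Counts were rounded to whole numbers, filtered with filterByExpr, scaled by TMM and compared by edgeR's quasi-likelihood test (edgeR 4.0.16 under R 4.3.3). P-values were adjusted by Benjamini-Hochberg over 14512 genes, with a threshold of 0.05. Standard errors were derived from the F statistic and the log2 fold change. Single values were tested with exact permutation tests (scipy 1.17.1), and log2 CPM used a prior count of 2. The tests were also tried on simulated data. Alternatives were other size factors and filters, DESeq2 1.42.0, limma-voom (limma 3.58.1), a block for the replicate letter, leaving out each sample, removal of mitochondrially encoded genes and, chosen after seeing the data, removal of each sample's transcript length trend and of vehicle A and D together.

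Some genes of the pathway lists are not reported here and were left out of the list counts. The receptors, lists and tests were chosen with earlier results of these data known. All 9 receptors were named, with each pathway gene at an unadjusted p under 0.05 or, in lists with none, the smallest p in each direction. Gna11 was named for its group ranges that did not overlap. For the 3 receptors with the largest SD of log2 CPM, the 3 genes with the highest Pearson r were named, among genes with a mean of at least 5 CPM.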

Additional observations from a re-analysis of the deposited data

How the results depend on the processing

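For the 9 receptors under 19 alternatives each, 149 of 171 log2 fold changes kept their direction and stayed short of the threshold, and 22 changed sign, 14 of them with 1 sample left out. Drd5, Adra1a, Adra1d, Adra2a and Adra2c kept their direction under all 19. Drd2 was at 0.0017 with RLE size factors, 0.0075 with at least 10 counts in every sample and 0.022 with limma-voom, where Drd1 was at 0.0037. Without vehicle A and D together Drd2 was at 0.33 and Adra1b at -0.13. With the replicate block (A, B, C and E, 8 samples) Drd2 was at 0.00998 and Adra1b at -0.037. With 1 sample left out, log2 fold changes ran from -0.12 to 0.12 for Drd1, -0.44 to 0.22 for Drd2, -0.040 to 0.13 for Adra1b and -0.11 to 0.071 for Adrb1. The mean differences in CPM ran from -0.735 to 0.666 for Drd1, -0.279 to 0.121 for Drd2, -0.0744 to 0.251 for Adra1b and -0.263 to 0.141 for Adrb1.

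By edgeR 0 receptors passed under any alternative. Over all genes the count past the adjusted threshold was 0, except 1 (Gm14308) without AM6545 A. At an unadjusted p under 0.05 it was 1047, from 496 without vehicle A to 1848 without AM6545 E. In the order per kb, 6 of 8 neighbours differed, 7 with the longest coding transcript and 0 in vehicle samples alone, where the smallest exact permutation p is 0.0625. Whether the replicate letters pair the samples is not stated, and 4 correlations cannot decide it. Deviations of same-letter samples correlated at -0.02, 0.04, 0.34 and -0.02 for A, B, C and E. Of 4 AM6545 samples, 1 correlated best with its own letter. Under the block 769 genes had an unadjusted p under 0.05. Depth limits Drd2, with 11 to 43 counts per sample, most.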

Other observations

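Ratios between receptors within a sample, taken per kb, do not depend on the scaling between libraries. Adra2c made up 33.2% to 39.1% of the summed level of the 9 receptors, and the 3 dopamine receptors 30.4% to 39.0%, with both ends in vehicle samples. The ratio of Drd5 to Drd1 ran from 2.08 to 3.15 in AM6545 samples and from 1.56 to 2.38 in vehicle samples. Drd1 exceeded Drd2 by 3.97-fold to 8.71-fold in AM6545 samples and by 2.54-fold to 14.3-fold in vehicle samples. Over all 9 samples Drd2 rested on 11 to 43 counts per sample. The ratio of Adra2c to Adra2a ran from 3.60 to 4.86 in AM6545 samples and from 3.21 to 5.15 in vehicle samples.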
